A study of Mus musculus with 8 samples.

Results

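Neural progenitor genes were examined in maps of SMC1 binding in cultured mouse cortical neurons. The 7 genes were Hes1, Hes5, Pax6, Sox2, Eomes, Nes and Vim, out of 21900 protein-coding genes in the RefSeq annotation of GRCm38.p6. They were chosen by name, and every listed SMC1 peak inside a gene body or within 100 kb of it was taken. This gave 5 of the 1684 peaks listed after NMDA and 19 of the 12359 peaks listed at rest. The NMDA group was wild-type cortical neurons from embryonic day 16 Swiss-Webster mice that were given 50 µM NMDA, an agonist of one class of glutamate receptor, for 10 min on day 13 in vitro. These cells were then kept in drug-free medium for 50 min. The resting group was the same kind of culture at day 13 with no treatment. Each group had 2 SMC1 chromatin immunoprecipitation (ChIP) samples and 2 input DNA samples, and the authors deposited 1 list of peaks per group.

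Radial glia, the stem cells of the developing cortex, keep dividing while Notch signalling is on. Notch on one cell is activated by a ligand on its neighbour, its intracellular part joins the DNA-binding protein RBPJ, and together they switch on Hes genes, whose products repress neuron-forming genes. Pax6 and Sox2 are transcription factors of radial glia, Eomes (also called Tbr2) marks the intermediate progenitors that arise from them, and Nes and Vim encode the intermediate filament proteins nestin and vimentin. Most of these genes are turned down as neurons mature. SMC1 is a core subunit of cohesin, the ring-shaped complex that forms chromatin loops, and its binding sites need not mark active genes. Expression was not measured in these files, so the cells could not be checked by marker genes, and a site bound in a few cells of a culture cannot be told apart from one bound weakly in all of them.

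Peak strength below is the authors' −log10 p from the peak caller, summed over the 2 replicates of a list. A listed peak had passed an irreproducible discovery rate (IDR) of 0.05, which limits the share of peaks that fail to repeat between replicates. Strength grows with sequencing depth, which is unknown for these lists, so values of the NMDA and resting lists stand side by side and are not tested against each other. Within a list, the percentile says what share of its peaks is no stronger.

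Promoter windows, 250 bases before to 50 bases after a RefSeq start, were found for 6 of the 7 genes, with no entry for Hes1. All 6 lie on the plus strand. An NMDA peak covered the window of Hes5 and that of Nes, and no window of Pax6, Sox2, Eomes or Vim. The first stretches shown are those of the Hes5 window that hold the RBPJ motif TGGGAA, read on both strands, because Hes5 is a direct target of Notch. Capitals mark the motif, which reads TTCCCA where it lies on the minus strand. The upper stretch is at chr4:154960685-154960714 and the lower at chr4:154960829-154960858, on the plus strand of GRCm38.p6, with sequences from RefSeq.
Hes5 upper: agggcgagcgcgTTCCCAcagcccggacat
Hes5 lower: ggccgccgagtgTGGGAAcggccgcggcgc

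The motif began 226 and 82 bases before 154960923, the RefSeq start used for the Hes5 window. The annotated gene body begins before that start, at 154960626, and the peak offsets below are counted from there. Of all 32851 promoter windows 25.6% held the motif at least once. The other 5 genes with a window had no match to it. The N-box letters CACNAG, which Hes proteins can bind, occurred in windows of Pax6, Eomes and Vim (42.5% of all windows), and the CTCF core letters AGGGGGC in that of Sox2 (10.6% of all windows). Both strands were read and these are letter matches only. The whole Hes5 window lay inside the NMDA peak at the gene, and the nearest resting peak was 2834 bp from it.

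The 250 bases before the Nes gene start, at chr3:87970843-87971092 on the plus strand of GRCm38.p6 (RefSeq), are shown because they lie under an NMDA peak and, but for the first few bases, under a resting peak. Capitals mark the 15 CG pairs.
Nes upstream: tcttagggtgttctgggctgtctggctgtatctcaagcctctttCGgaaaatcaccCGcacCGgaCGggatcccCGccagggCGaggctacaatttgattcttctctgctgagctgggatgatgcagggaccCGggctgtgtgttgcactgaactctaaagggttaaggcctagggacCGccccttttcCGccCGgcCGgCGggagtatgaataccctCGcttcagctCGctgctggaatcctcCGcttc

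CG pairs per 300-base window ranged from 10 in Eomes to 41 in Hes5, against a median of 7 over all windows. Sox2 had 27, Nes 18, the 2 Pax6 windows 18 and 16, and Vim 11. The Hes5 window was the most extreme, and 3.46% of all windows held as many CG pairs. None of the 3 motifs searched occurred in the Nes window.

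The first comparison asked which of the genes had SMC1 nearby in each condition. After NMDA, 4 of the 7 genes (Hes5, Pax6, Sox2 and Nes) had a peak within 100 kb, against 24.9% of all protein-coding genes. At rest all 7 had one, against 73.8%. Within 10 kb, an NMDA peak was found at 3 of 7 genes (Hes5, Pax6 and Nes), against 8.94% of all protein-coding genes, and a resting peak at 7 of 7, against 38.2%. All 3 genes with an NMDA peak within 10 kb also had a resting one, as did 81.4% of all protein-coding genes with such an NMDA peak. In the other direction, 3 of the 7 genes with a resting peak within 10 kb had an NMDA one, against 19% of all protein-coding genes with such a resting peak. Every one of the 7 genes had a resting peak within 2 kb of its body, against 28.6% of all protein-coding genes. For Hes5 the only resting peak within 10 kb lay over the neighbouring gene Pank4, 1434 bp from Hes5, and did not meet the Hes5 NMDA peak.

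**Figure D1:**
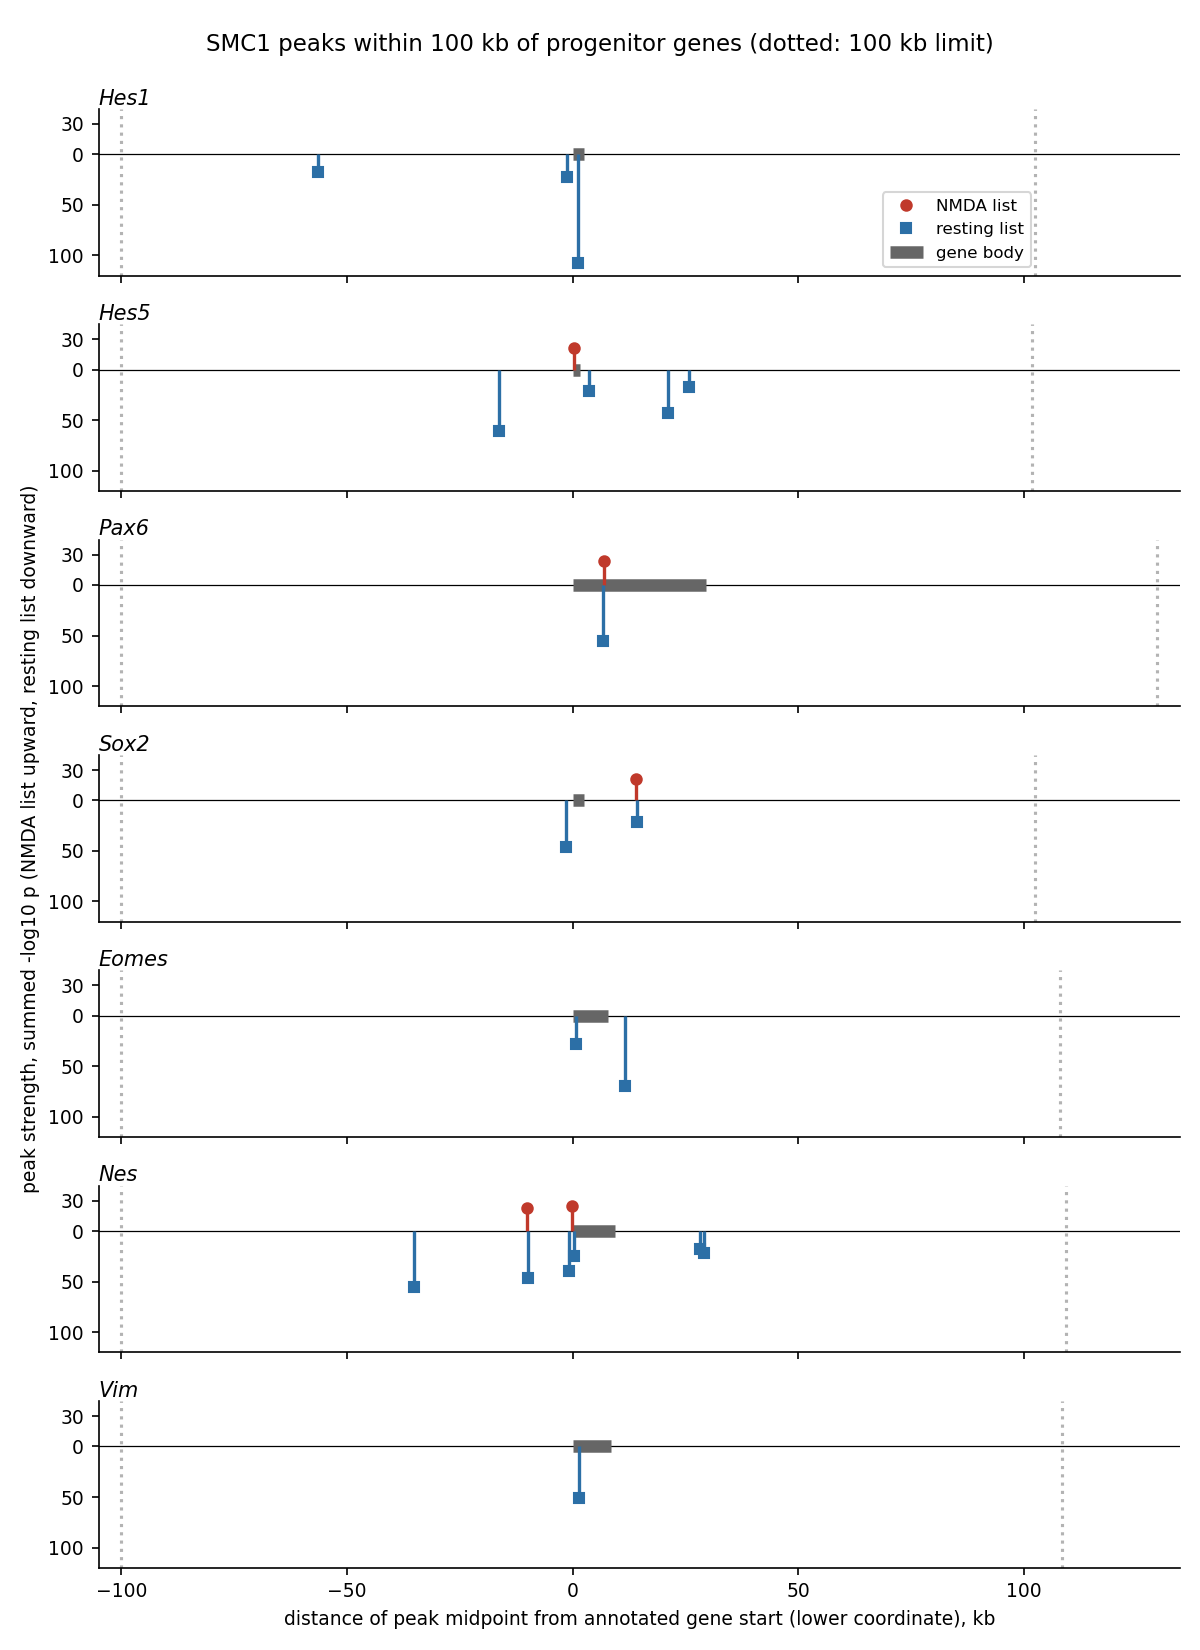
SMC1 peaks around the 7 genes, with the distance of each peak's midpoint from the annotated gene start in kb on the x axis and peak strength (summed −log10 p) on the y axis, NMDA list upward in red and resting list downward in blue. The 5 NMDA peaks lie between 21.4 and 24.8, while the 19 resting peaks run from 17.4 to 107. Most peaks sit at or close to the gene body.

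Hes1 and Hes5 encode the repressors through which Notch keeps progenitors from becoming neurons. Hes1, a gene of 2440 bp on chromosome 16 at 30065357 to 30067796, had no NMDA peak within 100 kb. The nearest one lay 168 kb away with a strength of 50.2. At rest it carried the strongest peak of the set, over the gene body at 30065774 to 30067542, with −log10 p of 63.7 in the first replicate column and 43.7 in the second (strength 107). This peak ranked 135 of 12359 in the resting list, at percentile 98.9, and of resting peaks in its strength decile 33.4% were overlapped by an NMDA peak. A second resting peak ended 516 bp from the gene, at 30063586 to 30064841, with 11.6 and 10.8 in the replicate columns. The third, 56.1 kb away at an end of the gene 4632428C04Rik, was among the weakest of the list, with 8.36 and 9.04.

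Hes5, on chromosome 4 at 154960626 to 154962372, had an NMDA peak over the gene and no listed resting peak over it. Its NMDA peak at 154960466 to 154961582 covered the gene start, with 10.0 in the first replicate column and 11.6 in the second. It was the one NMDA peak of the set that met no resting peak. The closest resting peak, 2224 bp beyond it at 154963806 to 154964785, had 9.20 and 11.5 in the replicate columns. It lay over an end of Pank4, a pantothenate kinase family gene, and whether this is the start of that gene was not examined. In both replicates of each list the interval kept to the same place. After NMDA it spanned −0.16 to 0.889 kb from the gene start in the first column and −0.154 to 0.956 kb in the second, and at rest 3.21 to 4.16 kb and 3.18 to 3.82 kb.

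The other 3 resting peaks around Hes5 were nearer to other genes. The strongest, at 154943960 to 154944633, had 23.2 and 37.6 in the replicate columns and lay 15993 bp from Hes5 and 15340 bp from Tnfrsf14, a receptor gene of immune cells. One with 27.5 and 15.8 lay 527 bp from the other end of Pank4. The last, inside the phospholipase gene Plch2, had 7.55 and 9.84. Signal that missed the IDR limit was not analysed here, so a gene start without a listed peak at rest is not shown to lack SMC1.

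**Figure D2:**
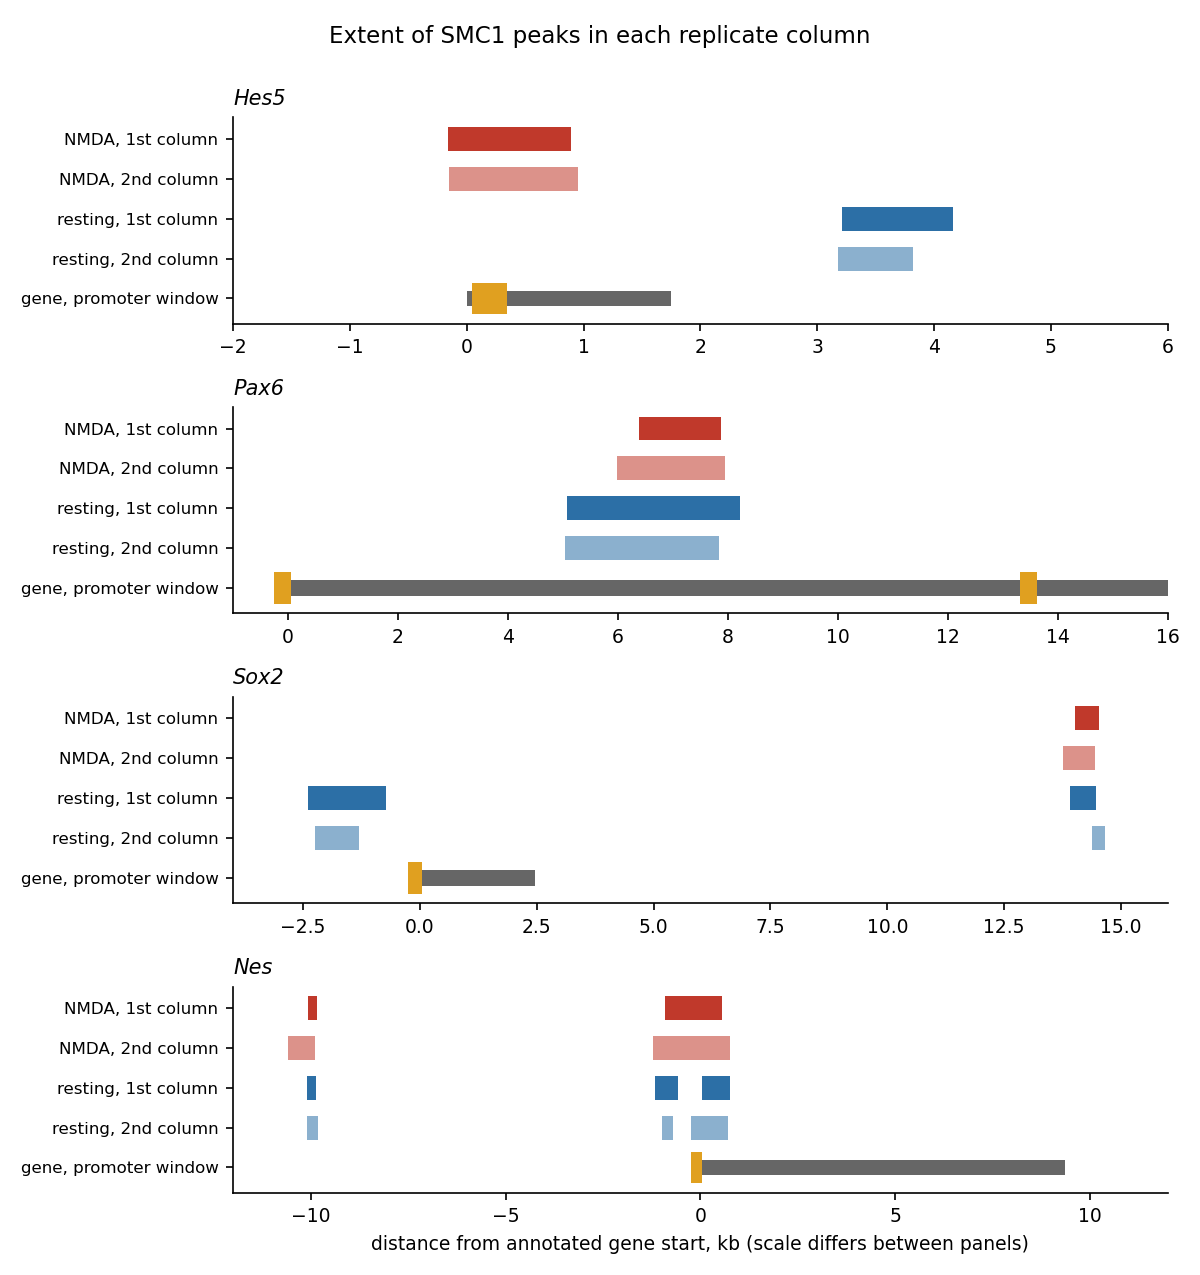
Extent of each peak in the 2 replicate columns of each list, NMDA in red above resting in blue, by distance from the annotated gene start in kb, with the gene body in grey and RefSeq promoter windows in yellow. The Hes5 intervals of the 2 lists do not meet, those at Pax6 lie between its 2 promoter windows, and the NMDA intervals at Nes overlap both resting intervals next to the gene start.

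Pax6 and Sox2 encode transcription factors that define radial glia, and Pax6 mutations are known for their effects on eye and cortex. Pax6 is the longest of the 7 genes, 29515 bp on chromosome 2 at 105668896 to 105698410, and had 1 peak in each list. The NMDA peak at 105674885 to 105676848 had 10.1 in the first replicate column and 13.4 in the second. The resting peak at 105673928 to 105677125 had 35.0 and 20.1. The NMDA peak lay wholly inside the resting one, which was the widest of the set at 3198 bp. Both lay within the gene, 6.97 and 6.63 kb from its start by their midpoints and between the 2 promoter windows. The NMDA peak kept 5940 and 5365 bp from these windows, and the resting peak 4983 and 5088 bp. The resting peak was at percentile 87.6, and the NMDA peak at 54.4 of its own list.

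Sox2, a gene without introns, spans 2467 bp on chromosome 3 at 34649995 to 34652461 inside the noncoding gene Sox2ot, with no other protein-coding gene within 100 kb. Its NMDA peak, at 34663762 to 34664520 and 11.3 kb past the gene, had 13.4 and 8.03 in the replicate columns. A resting peak at 34663905 to 34664644 overlapped it over 616 bp, with 12.6 and 8.54. The stronger resting peak at Sox2, at 34647596 to 34649263, ended 732 bp before the gene start, with 30.9 and 15.2, and had no NMDA peak over it. So the site shared by the 2 lists was the weaker of the resting pair, at percentile 15.6, against 79.2 for the site before the gene start. At the shared site the intervals of the resting replicates overlapped each other over 83 bp, 11.2% of the listed width, the lowest of the 24 peaks.

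Eomes, on chromosome 9 at 118478186 to 118486132, had no NMDA peak within 100 kb. The nearest NMDA peak was 120 kb away with a strength of 27.1. At rest a peak at 118478538 to 118479480 began 300 bp past the promoter window, inside the gene, with 17.2 and 10.8 in the replicate columns. A stronger one at 118489543 to 118490129, 3411 bp past the gene and at an end of the noncoding gene Gm33460, had 41.9 and 27.7 and stood at percentile 94.0. The first replicate column was the higher one at both.

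Nes and Vim encode filament proteins that are used as markers of progenitor cytoplasm. Nes, on chromosome 3 at 87971093 to 87980451, had the most peaks of the 7 genes, 2 after NMDA and 6 at rest. It also lies in the most gene-dense window, with 11 other protein-coding genes within 100 kb. Of all protein-coding genes 4.58% had as many resting peaks within 100 kb, where the median was 2. The NMDA peak at 87969889 to 87971842 covered the gene start, with 9.54 in the first replicate column and 15.3 in the second. At rest 2 peaks lay under it, at 87969937 to 87970521 with 21.6 and 17.7, and at 87970846 to 87971850 with 12.7 and 12.04. In the first resting replicate column the peak at the gene began 0.039 kb past the gene start, and in the second it began −0.247 kb from it, so the bases shown above were covered in the second column only.

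A second NMDA peak of Nes, at 87960505 to 87961260 and 9833 bp before the gene, had 9.93 and 13.4. The resting peak under it, at 87960988 to 87961272, had 14.9 and 31.3. Both lay at an end of the noncoding gene Gm32518, and the nearest protein-coding gene was Crabp2, a retinoic acid binding protein gene. The other 3 resting peaks lay in neighbouring genes. That inside the exonuclease gene Isg20l2 had 20.7 and 34.4, and the pair inside Bcan, which encodes the matrix protein brevican, had 10.2 and 7.44 and 10.8 and 10.7. None of these 3 had an NMDA peak over it.

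Vim, on chromosome 2 at 13574311 to 13582826, had a single resting peak at 13575311 to 13576112, which began 1 kb into the gene and 951 bp past the promoter window. It had 31.2 in the first replicate column and 19.3 in the second, at percentile 84.2. The nearest NMDA peak lay 1021 kb away, with a strength of 20.0. Inside the 100 kb limit, the farthest NMDA peak was the one 11.3 kb from Sox2 and the farthest resting peak the one 56.1 kb from Hes1. The nearest resting peaks outside it were those 103 kb from Hes5 (strength 53.1), 107 kb from Nes (56.5), and 120 kb from Hes1 (20.7) and from Eomes (64.5). The nearest NMDA peaks outside it were those 120 kb from Eomes and 133 kb from Hes5 (21.3).

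**Figure D3:**
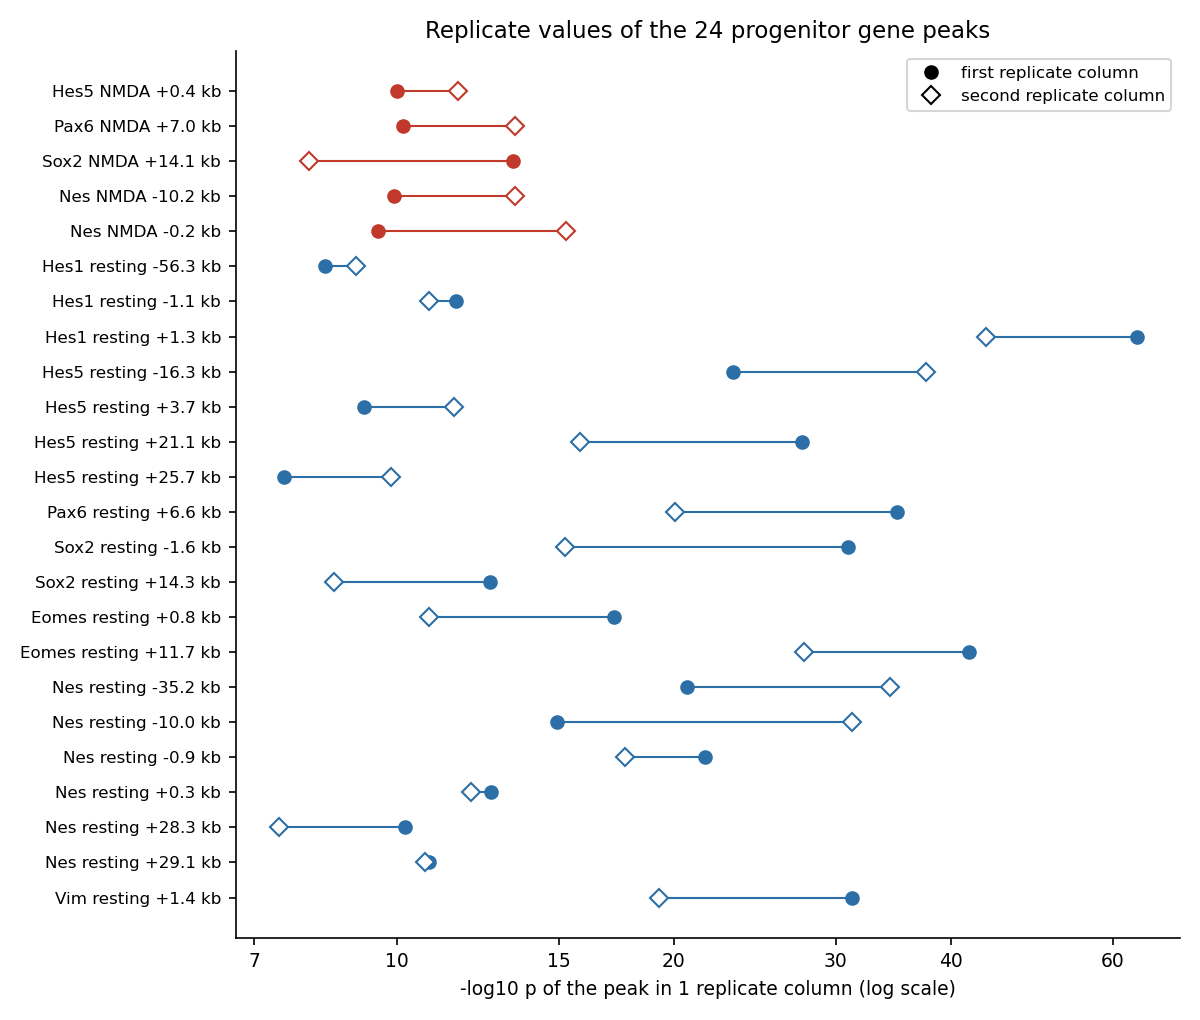
Replicate values of all 24 peaks as −log10 p on a log axis, with the first replicate column as filled circles and the second as open diamonds. NMDA peaks, in red, are above resting peaks, in blue, and each is named by its gene and the distance of its midpoint from the gene start. After NMDA 4 of 5 peaks have the higher value in the second column, and at rest 13 of 19 in the first.

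The next comparison asked whether the sites of these genes were found in both conditions. Of the 5 NMDA peaks 4 overlapped a resting peak, against 75.8% of the whole NMDA list. Of the 19 resting peaks 5 were overlapped by an NMDA peak (26.3%, exact Clopper-Pearson 95% interval 9.15 to 51.2%, for counting error only), against 10.7% of the whole resting list, a value inside that interval. These 5 were at Pax6, Sox2 and, for 3 of them, Nes. Of the Nes peaks 2 lay under the same NMDA peak, while the interval takes peaks as independent, so nothing is concluded from it. The overlapped resting peaks had strengths of 21.2 to 55.0 (median 39.3, n = 5 peaks) and the others 17.4 to 107 (median 35.7, n = 14 peaks), so the overlapped peaks lay inside the range of the others. The strongest resting peaks of the set, at Hes1 (107), Eomes (69.6) and Hes5 (60.8), were among those without an NMDA peak. All of them were in the top strength decile, where 33.4% of all resting peaks were overlapped, so most such peaks had none. In the strength deciles of the 19 peaks, between 5.02 and 33.4% of all resting peaks were overlapped. Added over the 19 peaks, these shares come to 2.39 peaks, against the 5 found. Peaks are not replicates of a condition, so no test was made.

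The 5 NMDA peaks were of middling strength in their list and the 19 resting peaks ranged over theirs. The NMDA peaks had a median strength of 23.4, with a list median of 23.0, and stood between percentiles 35.1 and 62.8. The resting peaks had a median of 39.3, with a list median of 30.2, and a median percentile of 70.0. Taken by the first replicate column alone the median percentile was 59.3, and by the second 53.2. Of the resting peaks 3 were in the top 10% of the list and 3 in the bottom 10%. None of the 5 NMDA peaks passed an IDR of 0.01, a limit that 20.8% of NMDA peaks met, and 11 of 19 resting peaks did, against 56.9% of the resting list. The IDR of the NMDA peaks ran from 0.0186 at Pax6 to 0.0309 at Sox2.

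**Figure D4:**
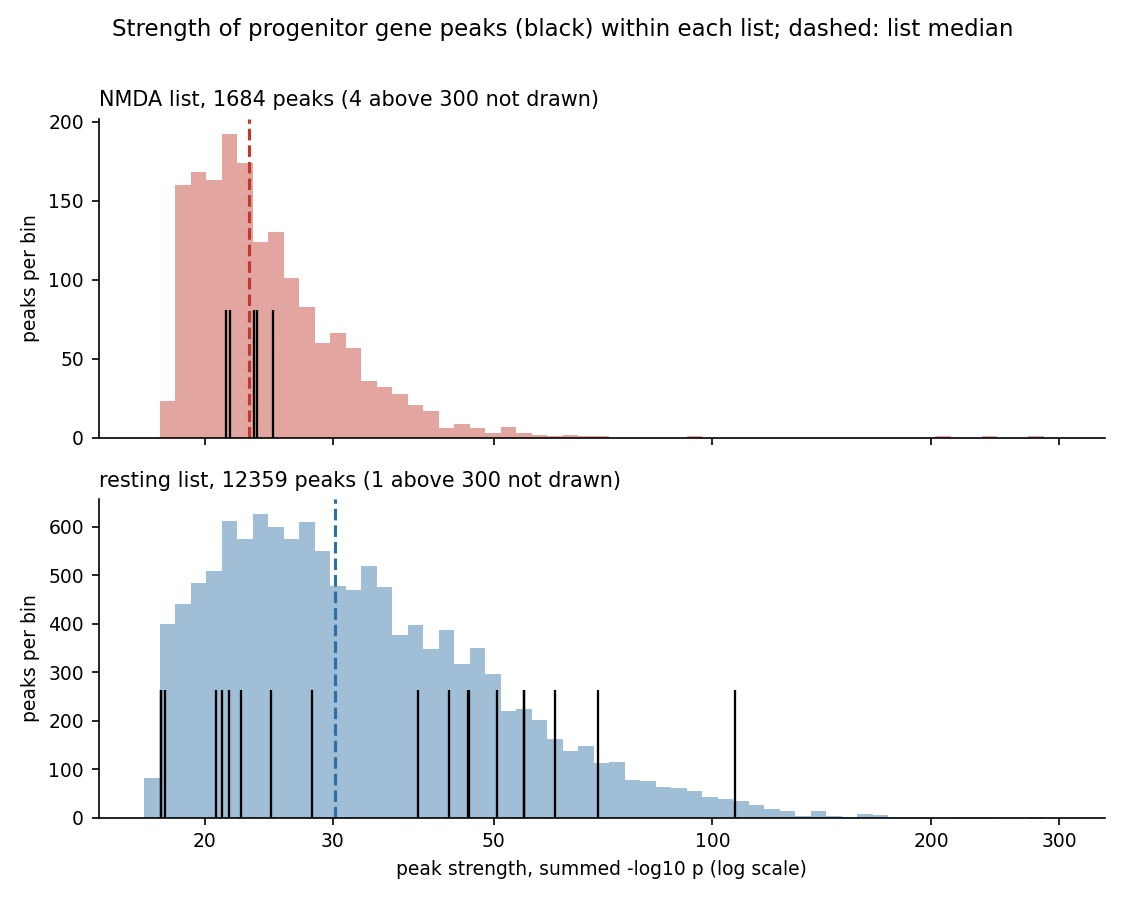
Distribution of peak strength (summed −log10 p, log axis) in the NMDA list above and the resting list below, as peaks per bin, with the peaks of the 7 genes as black lines and each list's median dashed. The NMDA peaks cluster about their median of 23.0, and the resting peaks spread from the weak end of the list to 107.

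The replicate columns differed at single sites. After NMDA the first column was the higher one at 1 of the 5 peaks, the Sox2 site, while in the whole NMDA list it was higher at 69.1% of peaks. At rest it was higher at 13 of 19 peaks (68.4%), and in the whole list at 54.1%. The ratio of first to second column ran from 0.624 at the Nes start to 1.67 at Sox2 after NMDA, and from 0.477 at the site before Nes to 2.03 at the site before Sox2 at rest. Many values recur: the second NMDA column holds 484 distinct values over 1684 peaks, and the value of 13.4 found there at both Pax6 and the site before Nes occurs at 45 peaks.

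By position, 3 of the 5 NMDA peaks were centred on a gene boundary, no more than 1 kb from the start or end of any annotated gene (61.6% of the NMDA list), and the other 2 were elsewhere inside a gene, Pax6 and Sox2ot (25.4% of the list). At rest 8 of 19 were (29% of the resting list), 9 were elsewhere inside a gene (40.2% of the list) and 2 between genes (30.8% of the list). The peaks were taken for lying near genes, so nothing is read from these shares. The NMDA peaks had a median width of 1117 bp (list 1033 bp) and the resting peaks 740 bp (list 644 bp).

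Other genes of the Notch pathway and of progenitors were described by role, from a list of 42 that leaves out the 7. An NMDA peak lay within 10 kb of 9 of 42 (21.4%) and a resting peak within 10 kb of 28 of 42 (66.7%), against the 8.94 and 38.2% of all protein-coding genes given above. All 9 with an NMDA peak had a resting one, against the 81.4% of all protein-coding genes with an NMDA peak. They were 1 of 5 Notch ligand genes, none of 4 receptor genes, 2 of 4 nuclear effector genes, 3 of 7 other Hes, Hey and Nrarp genes, 3 of 10 other progenitor transcription factor genes, none of 6 radial glia product genes and none of 6 proneural or intermediate progenitor factor genes. In the same order, a resting peak was found at 3, 3, 3, 6, 6, 4 and 3 genes. The median of the strongest resting peak per gene was 36.2 among the 28 and 32.1 among all protein-coding genes with one, and 50.5 among the 7 genes.

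For the related genes named below, values are those of the strongest peak within 10 kb in each list. Some of these genes had more peaks, such as Id2 with 3 at rest. Among the Notch ligands, Jag1 had an NMDA peak with 9.93 and 10.1 in the replicate columns and a resting peak with 19.8 and 10.8. The coactivators of RBPJ, Maml2 and Maml3, had peaks in both lists. Both are long genes, at 13296561 to 13709533 on chromosome 9 and 51687320 to 52105319 on chromosome 3. Peaks anywhere inside them were counted, so their counts are not adjusted for gene length. Maml2 had 13.9 and 8.42 after NMDA and 48.8 and 32.9 at rest, at overlapping sites across one edge of the gene. Maml3 had 3 peaks within 10 kb in each list. Its strongest NMDA peak, at 52101877 to 52103269 on chromosome 3, had 21.0 and 10.1 and overlapped a resting peak. Its strongest resting peak, with 45.4 and 32.9, lay at another site inside the gene, 51700958 to 51702231, with no NMDA peak over it. The values at rest were those of the strongest resting peaks among the ligand, receptor and effector genes, at percentile 96.5 for Maml2 and 95.9 for Maml3.

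Of the other Hes and Hey genes, Hes7, known for the segmentation clock, had 20.1 and 8.03 after NMDA and 34.6 and 52.8 at rest, over the gene, the strongest resting peak of these genes. Hey1 had 13.7 and 16.2 after NMDA, the strongest NMDA peak of these genes, and 21.2 and 29.8 at rest, also over the gene. Hes3 had 10.1 and 12.7 after NMDA and 9.94 and 18.3 at rest, at a site whose nearest protein-coding gene was Gpr153. Like Hes5, these 3 repressors had an NMDA peak within 10 kb, while Hes1, Hes6, Hey2 and Heyl did not. Hey2 had a resting peak with 29.3 and 28.4 that lay 6435 bp from the gene.

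Emx2, a patterning factor of the cortex, had 15.5 and 9.50 after NMDA, over the gene, and 38.0 and 28.4 at rest, 3704 bp away. The Id genes encode partners that block neuron-forming factors, and Id2 had 13.4 and 8.03 after NMDA and 23.5 and 47.2 at rest. Id4 had 11.8 and 8.03 after NMDA and 30.4 and 23.5 at rest. Without an NMDA peak, the proneural gene Neurog2 had the strongest resting peak of the 42, 6347 bp from the gene, with 71.6 and 46.2 (strength 118). Other genes without an NMDA peak within 10 kb were Lhx2, whose strongest resting peak had 66.7, Nrarp (54.2), Dll4 (49.1) and Notch1 (42.5, at a site nearest to Sec16a).

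**Figure D5:**
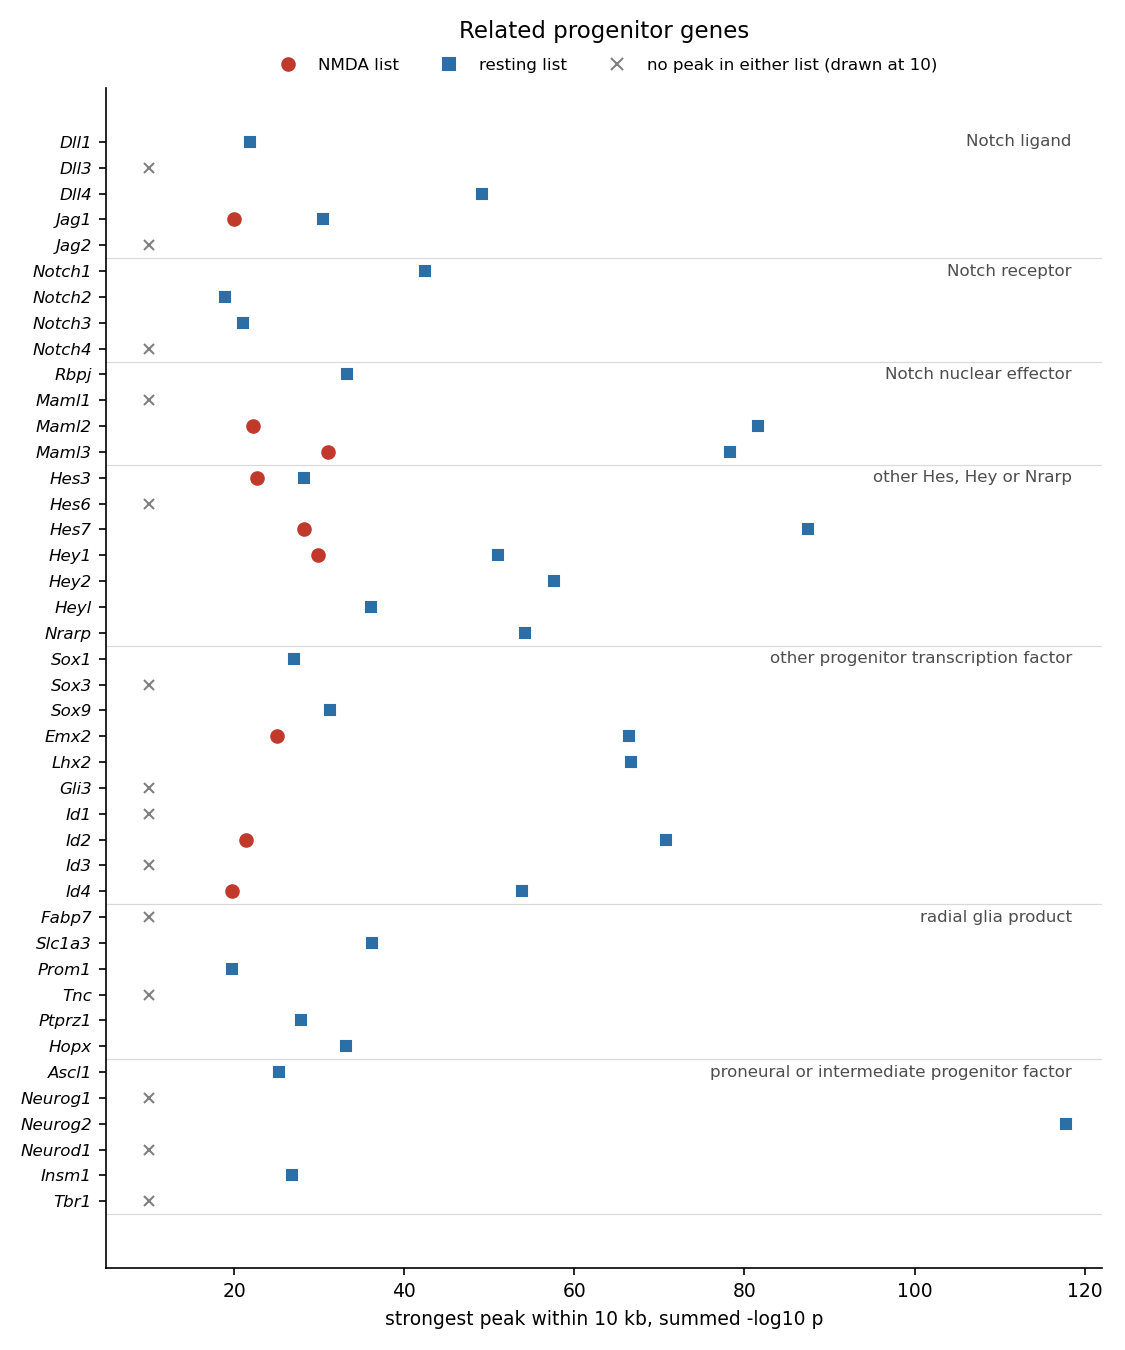
Strongest SMC1 peak within 10 kb of each of the 42 related progenitor genes, grouped by role, as summed −log10 p on the x axis, with the NMDA list as red circles, the resting list as blue squares and genes without a peak in either list as crosses. NMDA peaks lie between 19.8 and 31.1 and occur at 9 genes, and Neurog2 has the strongest resting peak (118).

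Many genes had the same numbers of peaks as a member within 100 kb. The number of other protein-coding genes with the same NMDA and resting counts was 2122 for Hes1, 741 for Hes5, 612 for Pax6, 1040 for Sox2, 3266 for Eomes and 3575 for Vim. For Nes it was 86, or 0.393% of protein-coding genes. Among these, likeness was taken as the nearest summed resting strength on the log2 scale, so beyond the counts it uses the resting list alone. By it Hes1 (147) was most like Dusp8 (147), Hes5 (142) like Fzd4 (142), Pax6 (55.0) like Ptx3 (54.8) and Sox2 (67.3) like Dcaf4 (67.2). Eomes (97.7) was most like Fbxo10 (97.7), and Nes (205) like Mvb12a (205). For Vim (50.5) it was its neighbour Trdmt1 (50.5), which has the same peak within 100 kb.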

How the data were processed

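SMC1 ChIP and input DNA were sequenced from 2 cultures each of NMDA-treated and resting neurons, 8 samples in all. The labels call the replicates biological and do not say whether cultures shared a litter. Per the submitters' processing notes, which give no versions or settings, the tools were MACS2, SAMtools, BWA, Trimmomatic and FastQC, and the genome was mm10 (GRCm38.p6). The authors deposited 1 list per condition, in the 20-column layout of the IDR tool, whose −log10 p values of the peak caller in 2 replicate columns sum to the strength used here. The deposited lists also hold the −log10 global IDR and, as other values, the start and end of each peak in each replicate. The replicate columns carry no replicate number. No library depth, input value or peak outside the lists was analysed here.

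A peak belonged to a gene when it lay within 100 kb of the gene body in the RefSeq table of GRCm38.p6 (49997 genes), and lists were compared by overlap of at least 1 bp. The share of the resting peaks overlapped by an NMDA peak carries an exact 95% interval, and the other shares are given without one. Members, the list of 42 related genes, distances and motifs were chosen with earlier results of these data known. Related genes are named where they had peaks in both lists, plus the 6 others with the strongest resting peak. No test was made, because 1 list per condition gives no replicate comparison free of depth, and the smallest exact p for 2 against 2 values is 0.33. The counting was tested on simulated peaks. Python 3.11.15, pandas 2.3.3 and scipy 1.17.1 were used.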

Additional observations from a re-analysis of the deposited data

How the results depend on the processing

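With peaks within 10 kb in place of 100 kb, the 7 genes had 11 resting peaks, and their median percentile was 79.2. They also had 11 resting peaks when only those nearest to a member among protein-coding genes were kept, and 11 at an IDR up to 0.01. At that IDR they had 0 NMDA peaks within 100 kb, 0 resting peaks overlapped by an NMDA peak and 0 genes with an NMDA peak within 10 kb (1.95% of all protein-coding genes had one), and 2 related genes had an NMDA peak within 10 kb. The statements on NMDA peaks of the 7 genes thus rest on peaks between an IDR of 0.01 and 0.05. Within 50 kb 16 related genes had an NMDA peak, against 16.9% of all protein-coding genes. The median percentile of the resting peaks was 53.2 to 59.3 when either replicate column was left out, against 70.0. An overlap of 50% of the shorter peak, and an NMDA peak within 1 kb, both left 5 resting peaks overlapped. Counts of genes with a resting peak stayed within 1.5 times under each distance and limit tried. Depth is unknown and limits what an absent peak shows. No paired analysis was possible because the replicate columns carry no numbers and no result comes from a test.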
